A study of Mus musculus with 12 samples.

Results

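Conventional type 1 dendritic cells (cDC1s) were sorted from B16F10 tumors of mice that differed in 2 factors, genotype and plasmid, and the question addressed here was whether the effect of Flt3L (FL) on the cDC1 transcriptome differed between the genotypes. The quantity that answers it is the genotype by FL interaction. For each gene it is the difference between FL and control in Clec9agfp/gfp mice minus the difference between FL and control in WT mice, on the log2 scale. It was computed for 11255 of the 11264 genes in the deposited table, and 9 genes with a mean value under 1 were left out. A positive interaction means that the change with FL was larger, or less negative, in Clec9agfp/gfp cDC1s.

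WT mice and Clec9agfp/gfp mice, both on the C57BL/6 background and 7 to 10 weeks old, received a plasmid encoding FL or the empty control plasmid 1 day before the tumor cells. B16F10 is a mouse melanoma line. On day 13, CD103+ CD11b- CD24+ cells among CD45+ MHCII+ Ly6C- F4/80- cells were sorted, and each library came from a pool of 2 to 3 mice. The 4 groups were therefore WT control, WT FL, Clec9agfp/gfp control (labelled DNGR1KO) and Clec9agfp/gfp FL, with 3 pools each. The pools came from independent experiments, and the labels do not say which replicate numbers share one. In the Clec9agfp/gfp line GFP is knocked into the gene for DNGR-1 in every cell, so the line carries the reporter along with the loss of the receptor. Because the libraries are bulk, fewer cells of a type and less RNA per cell cannot be told apart.

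DNGR-1, encoded by Clec9a, is a C-type lectin of cDC1s that binds F-actin exposed by dead cells and signals through Syk. Flt3L is the cytokine that drives the development and expansion of dendritic cells through the receptor Flt3. Tumor cDC1s cross-present antigen to CD8+ T cells, and on maturation they express Ccr7, costimulatory ligands, IL-12 and chemokines such as Ccl5, which attracts other leukocytes.

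Library sizes ranged from 14.4 to 25.9 M counts in 11 libraries and came to 3.06 M in Clec9agfp/gfp control 3, where a single count weighs 0.326 on the scale of normalized counts per M (CPM). Clec9a itself was at 288 to 388 in the 6 WT libraries and at 0.269 to 10.9 in the 6 Clec9agfp/gfp libraries, the highest of these in Clec9agfp/gfp control 3. All 16 cDC1 markers were measured, with summed values of 17640 to 22289 in the 12 libraries. On the first principal component, which held 32.9% of the variance, WT control 1 and WT control 3 stood at one end and Clec9agfp/gfp FL 3 at the other. As all 3 lie in groups that enter the interaction, the leading counts are also given without them.

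No gene passed an adjusted p of 0.1 for the interaction in limma (0% of 11255 genes called), and limma-voom on the counts behind the values called 0 as well. The smallest unadjusted p was 6.93e-05, which adjusts to 0.316. At an unadjusted p under 0.05 there were 1027 genes (9.12%), of which 347 (3.08%) had a higher and 680 (6.04%) a lower effect of FL in Clec9agfp/gfp cDC1s. In limma-voom these numbers were 316 and 694. The split moved with the scaling, to 562 and 515 with upper quartiles and to 164 and 952 with column totals set equal, the latter with a median interaction of -0.16 over all genes. It was 68 and 523 without the 3 libraries at the ends of the first component, 746 and 1265 without WT control 2, and 596 higher genes without Clec9agfp/gfp control 1. The higher genes numbered 200 without WT control 3, 186 without WT FL 3 and 201 without Clec9agfp/gfp control 3. The median interaction over all genes was -0.04, and its median standard error was 0.41, against 0.29 for the effect of FL within a genotype. The effect of FL was called for 604 genes higher (5.37%) and 134 lower (1.19%) in WT cDC1s, and for 226 higher (2.01%) and 388 lower (3.45%) in Clec9agfp/gfp cDC1s. These calls depended on single libraries. The WT total of 738 was 0 without WT control 3 or WT FL 2, 36 without WT FL 3 and 2535 without WT control 2. The Clec9agfp/gfp total of 614 was 106 without Clec9agfp/gfp FL 3 and 812 without WT control 2. A gene called in 1 genotype and not in the other is not thereby shown to differ between them, and what follows is a description of estimates with their errors.

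**Figure D1:**
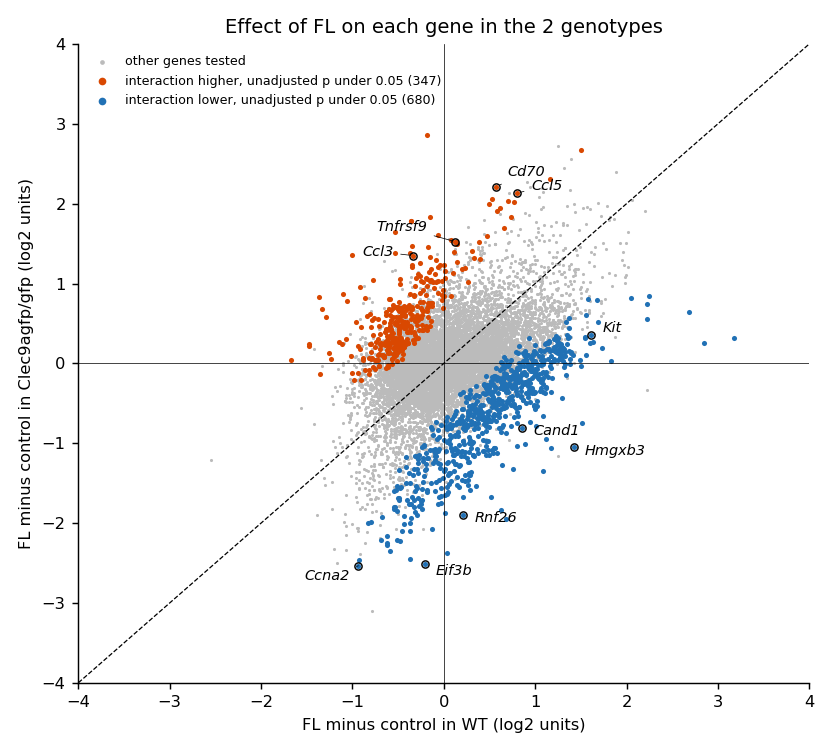
Each point is 1 of 11255 genes, with the difference between FL and control (log2 units) in WT cDC1s on the x axis and in Clec9agfp/gfp cDC1s on the y axis. The dashed line marks equal effects, and the 347 orange and 680 blue genes, on either side of it, had an unadjusted interaction p under 0.05, with none called after adjustment.

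The 2 effects of FL, which share no library, had a Pearson r of 0.42 and a Spearman rho of 0.38 across the 11255 genes, a description of genes that are not independent of each other. Of the 604 genes that FL raised in WT cDC1s, 543 also had a positive estimate in Clec9agfp/gfp cDC1s, against 5726 of all 11255 genes, with a median log2 change of 1.11 in WT and 0.44 in Clec9agfp/gfp. Of the 134 genes lowered in WT, 112 had a negative estimate in Clec9agfp/gfp. In the other direction, 204 of the 226 genes raised in Clec9agfp/gfp had a positive estimate in WT, and 309 of the 388 lowered genes had a negative one. In each set the medians are largest in the genotype whose test chose the genes, so their sizes are not to be compared.

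Where the interaction had an unadjusted p under 0.05, the larger part of the difference mostly lay between the control groups. The difference between the genotypes was larger in control than in FL libraries for 782 of the 1027 genes (76.1%), against 66.0% of all genes tested. The median absolute difference between genotypes in the 1027 genes was 0.72 in control and 0.34 in FL libraries. For 754 of them (73.4%, against 37.4% of all genes) the 2 effects of FL had opposite signs. Choosing genes for a large difference between these effects itself raises that share and these differences, so they are a description. The difference between genotypes was called for 3 genes in control and 3 in FL libraries. At an unadjusted p under 0.05 there were 2211 genes (19.6%) in control and 431 (3.83%) in FL libraries. The control number was 931 without WT control 3 and 3323 without WT control 2, where 2335 genes were called. By another view, of the single libraries, all pairwise FL minus control differences of one genotype lay outside those of the other for 155 genes higher in Clec9agfp/gfp (1.38%) and 228 lower (2.03%). Of these, 103 and 215 also had an unadjusted interaction p under 0.05.

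In the 8 genes with the smallest p and a negative interaction, the estimated effect of FL was negative in Clec9agfp/gfp and positive in WT cDC1s. Rnf26, a ubiquitin ligase of the endoplasmic reticulum (chromosome 9, 44095631 to 44113517 on GRCm38, minus strand, 3 values per group in CPM), was at 31.2, 27.5 and 19.4 in WT control and 26.5, 37.5 and 26.6 in WT FL. It was at 40.1, 45.4 and 50.4 in Clec9agfp/gfp control and at 10.6, 17.6 and 7.87 in Clec9agfp/gfp FL. The Clec9agfp/gfp control libraries were thus the 3 highest and the Clec9agfp/gfp FL libraries the 3 lowest of the 12. The interaction was -2.11 ± 0.40 (SE, adjusted p = 0.316), and it lay between -2.40 and -1.87 when each library was left out in turn.

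Hnrnpul1, which encodes an RNA-binding protein related to the hnRNPs, followed the same order. Its values were 69.0, 66.2 and 53.2 in WT control, 88.4, 95.6 and 79.6 in WT FL, 97.3, 108 and 117 in Clec9agfp/gfp control, and 48.5, 66.0 and 49.7 in Clec9agfp/gfp FL. Every FL library was above every control library in WT, and the reverse held in Clec9agfp/gfp. The interaction was -1.45 ± 0.28 (adjusted p = 0.316), with a log2 effect of FL of 0.48 ± 0.20 in WT (adjusted p = 0.171) and -0.97 ± 0.20 in Clec9agfp/gfp (adjusted p = 0.0178).

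Cand1, the exchange factor of cullin-RING ubiquitin ligases, was called for FL in both genotypes with opposite signs, which held for no other gene. It was at 73.5, 83.4 and 43.3 in WT control, 100.2, 138 and 117 in WT FL, 121, 128 and 167 in Clec9agfp/gfp control, and 61.7, 83.7 and 92.7 in Clec9agfp/gfp FL. In neither genotype did the FL and control values overlap. FL raised it by 0.86 ± 0.25 on the log2 scale in WT (adjusted p = 0.0807) and lowered it in Clec9agfp/gfp, with a change of -0.80 ± 0.25 (adjusted p = 0.0986). Its interaction of -1.66 ± 0.35 did not pass the adjusted threshold (adjusted p = 0.316).

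The other 5 of these 8 genes were Mtmr2, a phosphoinositide phosphatase (-1.72 ± 0.34), Polg, the catalytic subunit of the mitochondrial DNA polymerase (-2.06 ± 0.43), Pygo2, a coactivator of Wnt signaling (-1.62 ± 0.34), Hmgxb3, an HMG-box gene (-2.48 ± 0.53), and Trpc4ap, an adaptor of a cullin ubiquitin ligase (-1.89 ± 0.40). In each of the 8, no pairwise FL difference of one genotype overlapped those of the other. In that direction this held for 31.6% of the 680 lower genes and 2.03% of all genes. The 8 were chosen by p in these same libraries, which itself favors such separation, so it is not separate support. Without WT control 2, 22 genes were called (4 higher and 18 lower), among them Rnf26, Hnrnpul1, Cand1 and Pygo2 with adjusted p values of 0.0852, 0.0852, 0.0852 and 0.0974. No other single left-out library gave a call in limma.

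**Figure D2:**
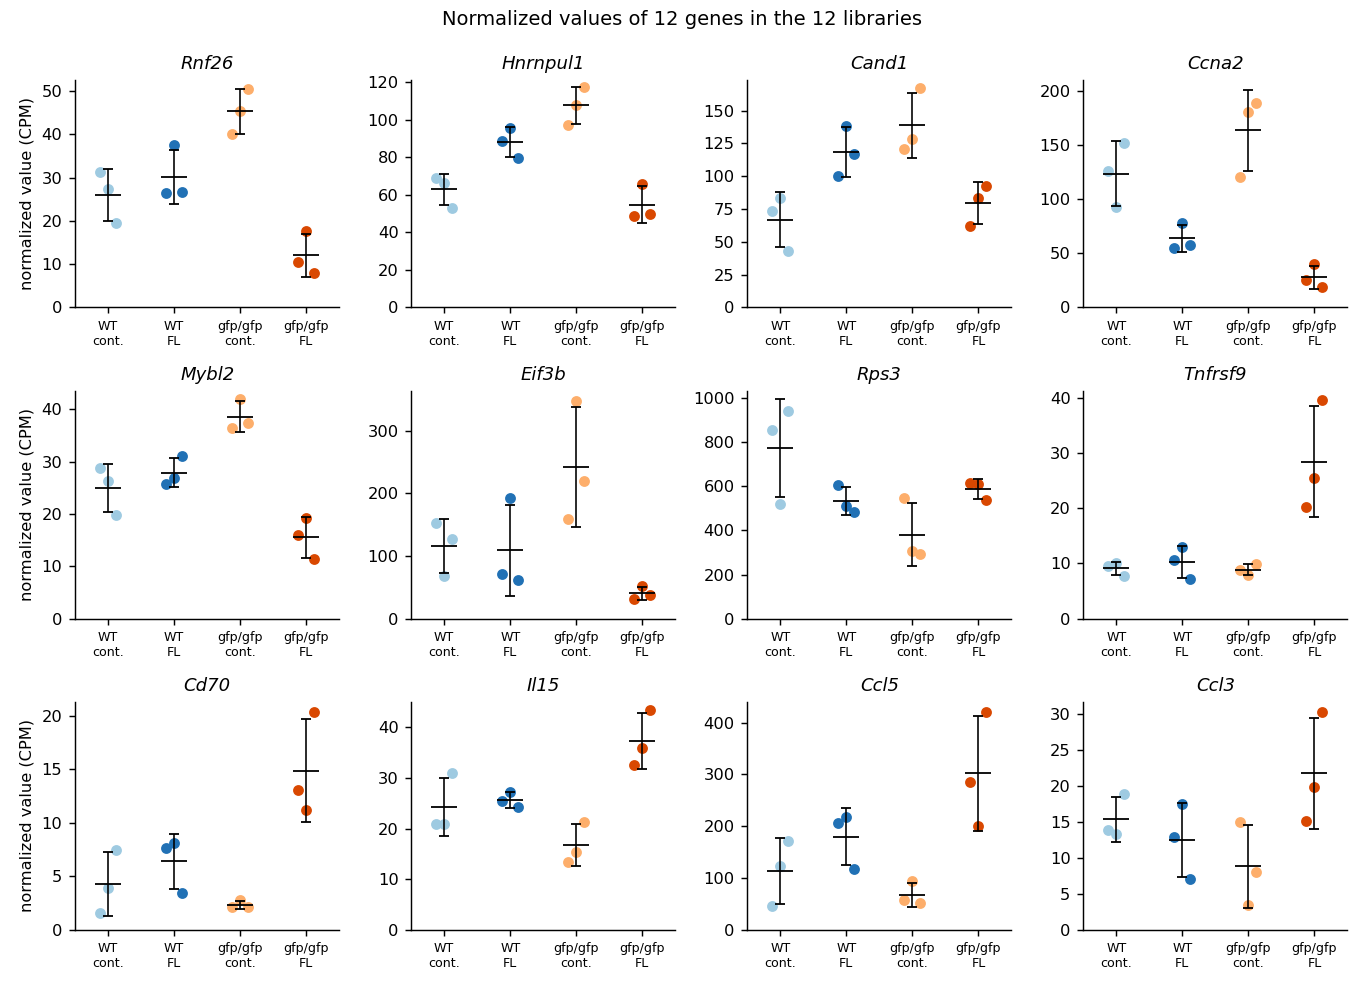
Normalized values (CPM, linear axes from 0) of 12 genes, with 1 point for each of the 3 libraries in a group, a bar at the group mean and whiskers of 1 SD. Rnf26, Hnrnpul1, Cand1 and Mybl2 had their highest group mean in Clec9agfp/gfp control, while Tnfrsf9, Cd70, Il15 and Ccl5 had their highest group mean in Clec9agfp/gfp FL.

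Cell-cycle genes mostly had a negative interaction. Of 90 genes of G2 and M phase, all measured, 73 had a negative estimate, 17 (18.9%, against 6.04% of all genes) had one with an unadjusted p under 0.05, and none had a positive one at that level. The median effect of FL over the list was -0.34 in WT and -0.76 in Clec9agfp/gfp. In WT 10 of the 90 were called lower (against 1.19% of all genes), and in Clec9agfp/gfp 31 were (against 3.45%). The median interaction was -0.48. For 87 genes of DNA replication and S phase the median was -0.34. At an unadjusted p under 0.05, 15 members were lower (17.2%, against 6.04% of all genes) and 1 higher (1.15%, against 3.08%).

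Cyclin A2 (Ccna2), which drives S phase and entry into mitosis, had the smallest p of the G2 and M list. Its values were 127, 92.9 and 152 in WT control, 55.0, 78.6 and 58.0 in WT FL, 121, 181 and 189.8 in Clec9agfp/gfp control and 25, 40.0 and 19.3 in Clec9agfp/gfp FL. FL libraries lay below control libraries in both genotypes, and further below in Clec9agfp/gfp. FL lowered Ccna2 in WT, with a log2 change of -0.94 ± 0.28 (adjusted p = 0.0812), and in Clec9agfp/gfp, with one of -2.53 ± 0.28 (adjusted p = 0.000785), and the interaction was -1.60 ± 0.39 (adjusted p = 0.353). Fam83d, a spindle protein, had an interaction of -1.47 ± 0.42 and Foxm1, the transcription factor of G2 and M genes, one of -1.29 ± 0.41.

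In the S phase list the leading gene was Mybl2, which encodes the B-Myb protein that acts with the MuvB complex and Foxm1. It was at 28.9, 26.3 and 19.9 in WT control, 25.8, 26.8 and 31.0 in WT FL, 36.4, 42.0 and 37.4 in Clec9agfp/gfp control, and 16.0, 19.2 and 11.4 in Clec9agfp/gfp FL. WT libraries overlapped between plasmids, while in Clec9agfp/gfp every FL library was below every control, the fall being called (-1.29 ± 0.24, adjusted p = 0.0134). The interaction was -1.45 ± 0.34 (adjusted p = 0.326). E2f8, a repressor of E2F targets, followed with -1.13 ± 0.36 and Fanci, of the Fanconi anemia repair pathway, with -1.50 ± 0.50.

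Among the FL libraries, Clec9agfp/gfp FL 3 was the lowest for cell-cycle genes. The mean deviation of the G2 and M members from their gene means was -0.33, -0.06 and -0.77 log2 units in Clec9agfp/gfp FL 1, 2 and 3, and -0.17, -0.28 and 0.05 in WT FL 1, 2 and 3. It was 0.30, 0.31 and 0.49 in Clec9agfp/gfp control and -0.02, 0.31 and 0.18 in WT control. The interaction computed from such library means, with an SE from their spread within groups, was -0.46 ± 0.25 for G2 and M genes. For S phase genes it was -0.36 ± 0.20. Members of a list share the 12 libraries and are not independent of each other, so counts of members are a description. Without Clec9agfp/gfp FL 3 the median interaction was -0.23 for G2 and M genes and -0.12 for S phase genes, and without the 3 libraries at the ends of the first component it was -0.02 and -0.06. The 17 G2 and M genes became 9 without WT control 3, WT FL 3 or Clec9agfp/gfp FL 3, 10 without Clec9agfp/gfp control 3, 11 without WT control 1, 27 without WT control 2 and 30 without Clec9agfp/gfp FL 2. They became 4 without the 3 libraries at the ends. The 15 S phase genes became 6 to 8 without WT control 3, WT FL 3, Clec9agfp/gfp control 3 or Clec9agfp/gfp FL 3, and 23 without WT control 2.

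Promoters of G2 and M genes carry elements bound by the MuvB and NF-Y complexes. The promoters of Cdk1 and Fam83d, of the G2 and M list, and of E2f8, of the S phase list, are shown to place these letters beside the values. In the 300-base RefSeq windows (GRCm38.p6, 250 bases before to 50 after the start) of 8434 tested genes, TTTGAA, the cell cycle genes homology region, or its reverse complement occurred in 48 of 75 G2 and M promoters (64%) against 12.5% of all. CCAAT or its reverse complement occurred in 55 of 75 (73.3%) against 39.8%. The 120 bases before the start are given 5′ to 3′ on the strand of the gene, with these letters on either strand in capitals.
Cdk1 (chr10:69352913-69353032, minus strand): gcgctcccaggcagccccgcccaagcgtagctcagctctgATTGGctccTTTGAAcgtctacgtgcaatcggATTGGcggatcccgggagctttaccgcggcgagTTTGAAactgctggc
Fam83d (chr2:158767979-158768098, plus strand): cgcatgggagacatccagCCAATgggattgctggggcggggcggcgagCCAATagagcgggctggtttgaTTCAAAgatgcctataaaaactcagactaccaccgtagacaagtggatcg
E2f8 (chr7:48881597-48881716, minus strand): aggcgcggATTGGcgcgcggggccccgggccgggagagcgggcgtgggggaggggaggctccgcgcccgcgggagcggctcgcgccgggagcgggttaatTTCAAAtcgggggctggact

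Cdk1, the mitotic kinase, chosen for display after its values were seen, holds 2 copies of each element and had an interaction of -0.02 ± 0.35, with log2 effects of FL of -0.75 in WT and -0.77 in Clec9agfp/gfp. Over all promoters the median interaction was -0.04 with TTTGAA and -0.06 without it. Within the G2 and M list it was -0.39 with and -0.51 without, and within the S phase list, where 12 of 68 promoters held TTTGAA, it was -0.63 with and -0.27 without. For CCAAT it was -0.43 with and -0.59 without in the G2 and M list, and -0.48 and -0.35 in the S phase list. The order thus differed between the lists.

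**Figure D3:**
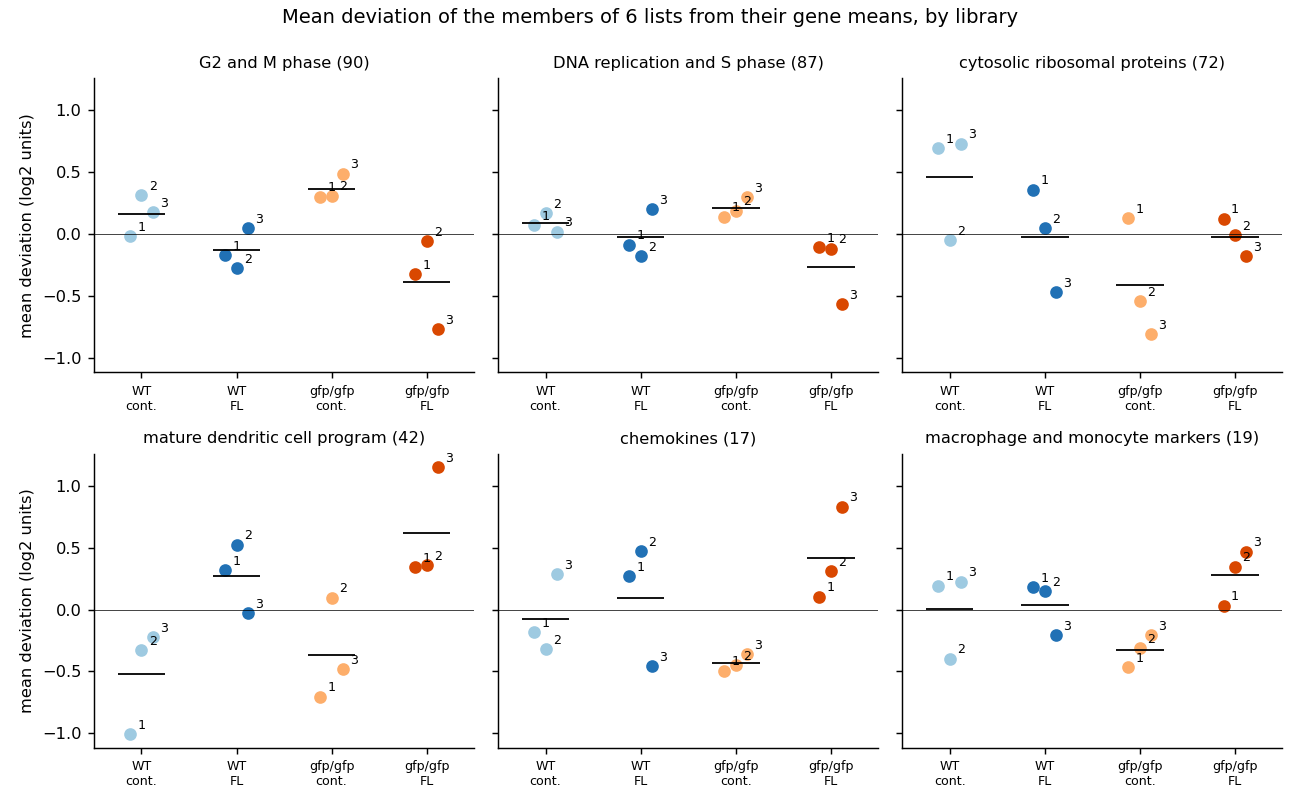
For 6 gene lists (members in parentheses), the mean deviation of the members from their gene means in log2 units is plotted for each library, numbered by replicate, with a bar at the group mean. Clec9agfp/gfp FL 3 is the lowest library for both cell-cycle lists and the highest for the mature dendritic cell, chemokine and macrophage lists, and ribosomal protein genes are highest in WT control 1 and 3.

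Ribosomal protein genes had a positive interaction. All 72 cytosolic ribosomal protein genes had a positive estimate, against 47% of all genes, with a median of 0.87 and 29 of them (40.3%, against 3.08% of all genes) at an unadjusted p under 0.05. Computed from the library means of the 72 genes, which are not independent of each other, the interaction was 0.86 ± 0.46. The medians came to -0.48 for FL in WT and 0.37 for FL in Clec9agfp/gfp. Between genotypes the median was -0.87 in control and -0.02 in FL libraries, so the interaction of these genes lay in the control groups. Of the 72, 6 were called lower with FL in WT (against 1.19% of all genes) and none was called in Clec9agfp/gfp.

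Rps3, of the small subunit, was at 856, 520.3 and 942 in WT control, 605, 509 and 484 in WT FL, 545, 305 and 295 in Clec9agfp/gfp control and 616, 610.2 and 537 in Clec9agfp/gfp FL. WT control 1 and 3 were the highest libraries and Clec9agfp/gfp control 2 and 3 the lowest. The interaction was 1.18 ± 0.35 (adjusted p = 0.443), and Rpsa and Rplp0 had interactions of 0.93 ± 0.29 each. Ribosomal protein genes have many processed pseudogenes, so reads of a gene and its copies can be split between them.

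The same direction held in other lists of mostly short transcripts. The median interaction was 0.43 over 77 mitochondrial ribosomal protein genes, 0.44 over 76 subunits of oxidative phosphorylation and 0.32 over 38 proteasome subunits. At an unadjusted p under 0.05, 5 (6.49%), 4 (5.26%) and 4 (10.53%) members of these lists were higher, against 3.08% of all genes. In each list 0 were lower, against 6.04% of all genes. Without WT control 3 these medians were 0.25, 0.28 and 0.17, and without the 3 libraries at the ends of the first component 0.14, 0.15 and 0.13. The 29 ribosomal protein genes became 10 to 15 without WT control 1, WT control 3, WT FL 3, Clec9agfp/gfp control 2 or Clec9agfp/gfp control 3, and 53 to 63 without WT control 2, WT FL 1 or Clec9agfp/gfp control 1. Without the 3 libraries at the ends of the first component 1 remained at that level and the median was 0.45.

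Transcript length moved with these values. Across the 11242 genes with a length in GENCODE M21, the Spearman correlation of the longest annotated transcript with the interaction was -0.37, and it was 0.43 with the effect of FL in WT but 0.04 with that in Clec9agfp/gfp. The 1126 genes with the shortest transcripts (up to 1286 bases) had a median interaction of 0.50, and the 1125 with the longest (6584 bases or more) one of -0.19. In single libraries, the median deviation of these short minus that of these long transcripts came to 0.38, 0.22 and 1.08 log2 units in WT control 1, 2 and 3, and to between -0.46 and 0.23 in the other 9. The part of transcript length in each result was not tested beyond centring: with each library centred within 20 bins of length, the median interaction of cytosolic ribosomal protein genes was 0.43 with 17 of 72 genes higher at an unadjusted p under 0.05 (3.55% of all genes), and those of oxidative phosphorylation and the proteasome were 0.07 and 0.10. The medians of G2 and M and of S phase genes were then -0.36 and -0.29, with 12 members lower in each list (4.31% of all genes), and still no gene was called for the interaction. The effect of FL was then called for 86 genes in WT, against 738 before centring, and for 735 in Clec9agfp/gfp, against 614.

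**Figure D4:**
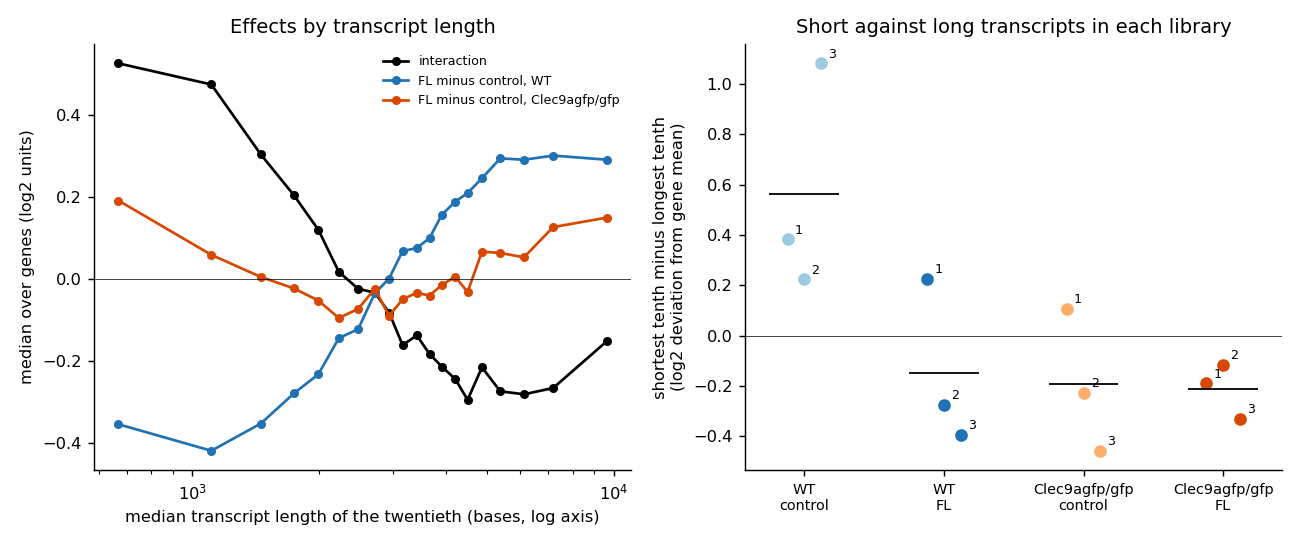
Left, the median over genes of the interaction and of the 2 effects of FL (log2 units) in 20 groups of genes of rising transcript length (bases, log axis). Right, the median deviation of the 1126 genes with the shortest minus that of the 1125 with the longest transcripts in each numbered library, with a bar at the group mean; the interaction falls from short to long transcripts, and WT control 3 stands highest at 1.08.

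Regulators of translation and splicing did not move as one group. Among 44 translation initiation factors, 2 were higher (4.55%) and 3 lower (6.82%) at an unadjusted p under 0.05, near the 3.08% and 6.04% of all genes. Subunits of the same complex, eIF3, went opposite ways. Eif3h was at 245, 195 and 283 in WT control, 183, 161 and 174 in WT FL, 166, 134 and 127 in Clec9agfp/gfp control, and 202, 190.2 and 204.5 in Clec9agfp/gfp FL, an interaction of 0.95 ± 0.26. Eif3b was at 152, 68.7 and 127 in WT control, 71.5, 193 and 62.3 in WT FL, 159, 348 and 220.5 in Clec9agfp/gfp control and 31.7, 51.6 and 37.6 in Clec9agfp/gfp FL, an interaction of -2.31 ± 0.55 (adjusted p = 0.353). The fall of Eif3b with FL was called in Clec9agfp/gfp (-2.51 ± 0.39, adjusted p = 0.0102).

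Of 32 SR and hnRNP splicing regulators 7 were lower (21.9%, against 6.04% of all genes) and 0 higher at an unadjusted p under 0.05, although the median of the list was -0.03. Srsf1, a splicing factor that also acts in mRNA export, had values of 91.5, 82.6 and 77.3 in WT control, 87.7, 152 and 78.3 in WT FL, 112, 134 and 152 in Clec9agfp/gfp control and 52.2, 62.0 and 52.5 in Clec9agfp/gfp FL. Its 3 Clec9agfp/gfp FL libraries were the lowest of the 12, and the interaction was -1.51 ± 0.33. Among 63 genes of nucleolar ribosome biogenesis the median was -0.22 (-0.10 without WT FL 3 and -0.077 without the 3 libraries at the ends of the first component). Of these 63, 6 were lower (9.52%) and 2 higher (3.17%), against 6.04% and 3.08% of all genes. Nop9, a nucleolar RNA-binding protein, led with -1.61 ± 0.37.

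Genes of dendritic cell maturation had a positive median effect of FL in both genotypes, and their interaction differed by gene. The median effect of FL over 42 genes of the mature program was 0.85 in WT, where 12 were called higher (against 5.37% of all genes), and 0.87 in Clec9agfp/gfp, where 19 were called higher (against 2.01%). The median interaction was 0.27, with 4 members higher and 3 lower at an unadjusted p under 0.05 (9.52% and 7.14%, against 3.08% and 6.04% of all genes). It ranged from -0.05 without Clec9agfp/gfp FL 3 to 0.64 without WT control 1. Clec9agfp/gfp FL 3 was the highest library, at a mean deviation of 1.15 log2 units against 0.34 and 0.36 in Clec9agfp/gfp FL 1 and 2.

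Tnfrsf9, the costimulatory receptor 4-1BB, was at 9.53, 10.1 and 7.79 in WT control, 10.7, 12.9 and 7.23 in WT FL, 8.88, 7.82 and 9.95 in Clec9agfp/gfp control and 20.2, 25.4 and 39.6 in Clec9agfp/gfp FL. The 3 Clec9agfp/gfp FL libraries were above all 9 others, which overlapped. FL raised it in Clec9agfp/gfp (1.52 ± 0.29, adjusted p = 0.0147), its estimate in WT was 0.13 ± 0.29 (adjusted p = 0.824), and the interaction was 1.40 ± 0.41 (adjusted p = 0.443).

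Cd70, the ligand of CD27 on T cells, was low throughout, at 1.54, 3.91 and 7.44 in WT control, 7.63, 8.09 and 3.43 in WT FL, 2.12, 2.78 and 2.12 in Clec9agfp/gfp control and 13.1, 11.2 and 20.3 in Clec9agfp/gfp FL. The Clec9agfp/gfp FL libraries were again the highest 3. The interaction was 1.64 ± 0.59 (adjusted p = 0.458). Over the 20 TNF superfamily ligands and receptors measured, the median was 0.44, with 3 higher and 1 lower at an unadjusted p under 0.05 (3.08% and 6.04% of all genes). That median was 0.18 without Clec9agfp/gfp FL 3 and 0.13 without the 3 libraries at the ends of the first component. The lower one was Tnfrsf21, death receptor 6, with an interaction of -1.89 ± 0.50.

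Il15, which sustains CD8+ T and NK cells, was at 20.9, 20.9 and 30.9 in WT control, 25.4, 27.3 and 24.3 in WT FL, 13.4, 15.3 and 21.4 in Clec9agfp/gfp control and 32.6, 36.0 and 43.5 in Clec9agfp/gfp FL. WT libraries overlapped between plasmids, and Clec9agfp/gfp libraries did not. FL raised it in Clec9agfp/gfp (1.13 ± 0.24, adjusted p = 0.0225), and the interaction was 1.03 ± 0.34 (adjusted p = 0.455), between 0.85 and 1.21 with each library left out. Of 18 cytokine genes measured, 1 was higher (Il15) and 1 lower at an unadjusted p under 0.05 (5.56% each, near the 3.08% and 6.04% of all genes). The lower one was Tgfb1, transforming growth factor beta 1, which suppresses T cell responses, with an interaction of -1.52 ± 0.43.

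Icosl, the ligand of ICOS, went the other way from Tnfrsf9. It was at 45.3, 62.5 and 38.9 in WT control, 103, 110.3 and 104 in WT FL, 100.5, 69.4 and 73.9 in Clec9agfp/gfp control and 93.1, 75.8 and 107 in Clec9agfp/gfp FL. Its rise with FL was called in WT (1.12 ± 0.22, adjusted p = 0.0388), and the interaction was -0.94 ± 0.31 (adjusted p = 0.455).

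For the other maturation genes that the study names, the intervals of the interaction were wide. The estimate was 0.46 for Il12b, the p40 subunit of IL-12 (95% interval -1.01 to 1.94), 0.44 for Ccr7, the receptor that guides dendritic cells to lymph nodes (-0.79 to 1.66), and 0.60 for Cd83 (-0.26 to 1.46). For Cd80 it was -0.02, with an interval of -0.88 to 0.85. These intervals include 0 and also include differences of over 0.8 log2 units, so they show neither a difference nor the lack of one.

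Chemokine genes had a median interaction of 0.75 over the 17 measured, with 6 higher (35.3%, against 3.08% of all genes) and 0 lower at an unadjusted p under 0.05. The median effect of FL was 0.11 in WT and 1.12 in Clec9agfp/gfp. Computed from library means, the interaction of the list was 0.68 ± 0.40. The median interaction was 1.24 in limma-voom, 0.48 after centring on transcript length and 0.29 without the 3 libraries at the ends of the first component. After centring, 2 of the 17 were higher at an unadjusted p under 0.05 (3.55% of all genes). The 6 genes became 1 without WT control 3, WT FL 3 or Clec9agfp/gfp FL 3, 2 without Clec9agfp/gfp control 2 and 3 without Clec9agfp/gfp FL 2.

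Ccl5 was at 46.1, 124 and 171 in WT control, 205, 217 and 117 in WT FL, 57.8, 93.8 and 50.7 in Clec9agfp/gfp control and 285, 199.8 and 421 in Clec9agfp/gfp FL. WT libraries overlapped between plasmids, and in Clec9agfp/gfp every FL library was above every control. FL raised it in Clec9agfp/gfp (2.13 ± 0.40, adjusted p = 0.0143), the estimate in WT was 0.80 ± 0.40 (adjusted p = 0.254), and the interaction was 1.33 ± 0.57 (95% interval 0.13 to 2.54, adjusted p = 0.523). It lay between 0.95 and 1.88 with each library left out. Centring on transcript length brought it to 0.82 (unadjusted p = 0.185 in limma).

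Ccl3, an inflammatory chemokine, was at 13.8, 13.3 and 18.9 in WT control, 12.9, 17.4 and 7.08 in WT FL, 14.9, 3.40 and 8 in Clec9agfp/gfp control and 15.1, 19.7 and 30.2 in Clec9agfp/gfp FL. The groups overlapped except for the 2 of Clec9agfp/gfp, whose closest libraries were at 14.9 and 15.1. The interaction was 1.69 ± 0.59 (adjusted p = 0.455). Ccl9 and Ccl6, chemokines of myeloid cells, had interactions of 1.68 ± 0.66 and 1.23 ± 0.52.

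Markers of macrophages and monocytes moved in the same direction as the chemokines. Of 25 listed genes 19 were measured, with a median interaction of 0.74. At an unadjusted p under 0.05, 2 were higher (10.53%) and 0 lower, against 3.08% and 6.04% of all genes. The median was 0.48 without Clec9agfp/gfp control 1, 0.42 after centring on length and 0.12 without the 3 libraries at the ends of the first component. Their summed values were 1865 to 2569 in WT control, 1615 to 1926 in WT FL, 1491 to 1858 in Clec9agfp/gfp control and 1799 to 2208 in Clec9agfp/gfp FL. Lyz2, a lysozyme of myeloid cells with group means of 369 to 732, had an interaction of 1.15 ± 0.40, and Cd163, Cx3cr1, Mertk, Trem2 and Vcan were not among the genes tested. The genes tested held 0 of 10 neutrophil markers and 2 of 10 B cell markers, Ighm and Ighd, with sums of 340 to 632. They also held 9 of 11 melanoma markers, with sums of 23.9 to 147 and a median interaction of 0.015. Both sums were highest in Clec9agfp/gfp control 3. Of 18 T and NK cell markers 3 were tested, Cd247, Cd5 and Gzmb, while Cd3d, Cd3e and Cd3g were not. The sum of Cd247, Cd5 and Gzmb was 2.42 to 7.01 in 9 libraries and 7.85 to 12 in Clec9agfp/gfp FL. The median interaction was 0.55 over 8 of 12 plasmacytoid dendritic cell markers, 0.35 over 8 of 12 cDC2 markers and 0.40 over 7 of 15 fibroblast and endothelial markers. The sums of these lists in Clec9agfp/gfp FL were 118 to 165, 27.9 to 57.3 and 60.7 to 137, against 90.7 to 116, 36.2 to 63.3 and 28.7 to 75.9 in Clec9agfp/gfp control. In WT they were 110 to 122, 27.4 to 64.8 and 54.3 to 70.5 with FL, and 136 to 206, 44.5 to 75.8 and 47.9 to 57.2 in control. Without Clec9agfp/gfp FL 3 the medians were 0.29 for plasmacytoid dendritic cell and 0.065 for fibroblast and endothelial markers, and without Clec9agfp/gfp FL 2 that of cDC2 markers was 0.15. The part of other cells in the chemokine values was not tested.

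Of 45 genes of Flt3 signaling and its cytokine brakes, 33 had a negative estimate, against 5970 of all 11255 genes. At an unadjusted p under 0.05, 4 were lower (8.89%, near the 6.04% of all genes) and 0 higher. FL raised 11 of them in WT (5.37% of all genes) and 5 in Clec9agfp/gfp (2.01%). The median interaction was -0.27, and it was -0.12 without WT control 3 and -0.16 without the 3 libraries at the ends of the first component. These genes are long, with a median of 4701 bases against 3281 for all, and their median after centring on length was -0.05. Kit, the receptor most related to Flt3, was at 84.3, 182 and 58.9 in WT control, 237, 312 and 360.3 in WT FL, 272, 197 and 261 in Clec9agfp/gfp control and 284, 250 and 407 in Clec9agfp/gfp FL. Its WT control libraries were the 3 lowest, and the interaction was -1.27 ± 0.45 (adjusted p = 0.457, and 0.0852 without WT control 2).

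Of 23 genes that act close to DNGR-1, 3 were lower (13.0%, against 6.04% of all genes) and 1 higher (4.35%, against 3.08%) at an unadjusted p under 0.05. Their median of -0.02 was -0.30 without Clec9agfp/gfp control 1 and 0.068 without WT FL 3. Syk, the kinase that DNGR-1 engages, was at 41.8, 38.9 and 35.6 in WT control, 61.0, 79.9 and 59.6 in WT FL, 60.4, 54.7 and 61.2 in Clec9agfp/gfp control and 43.6, 45.0 and 75.9 in Clec9agfp/gfp FL. FL raised it in WT (0.76 ± 0.23, adjusted p = 0.0844), and the interaction was -0.90 ± 0.32 (adjusted p = 0.457).

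Of 13 cDC1 transcription factors 10 had a negative estimate, and 1 was lower at an unadjusted p under 0.05 (7.69%, near the 6.04% of all genes). Their median of -0.46 was -0.24 without Clec9agfp/gfp control 2 and -0.26 after centring on length. Zbtb46, the factor shared by conventional dendritic cells, was lowest in p (-1.30 ± 0.41), while Batf3, on which cDC1s depend, was at 0.82 ± 0.39. Of 15 integrin genes 13 had a negative estimate, 3 of them with an unadjusted p under 0.05 (20%, against 6.04% of all genes). Their median of -0.63 was -0.34 without WT control 3, -0.39 after centring on length and -0.28 without the 3 libraries at the ends of the first component. Itga5, the alpha chain of the fibronectin receptor, was at 9.82, 12.6 and 4.46 in WT control, 28.9, 30.8 and 24.3 in WT FL, 28.5, 14.8 and 17.5 in Clec9agfp/gfp control and 23.5, 22.1 and 25.6 in Clec9agfp/gfp FL. WT control stood below all the other libraries, and the interaction was -1.37 ± 0.45 (adjusted p = 0.455).

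For antigen presentation and interferon genes, shares at an unadjusted p under 0.05 stand against 3.08% higher and 6.04% lower of all genes. The median interaction was 0.32 over 20 genes of the MHC class II pathway (1 higher, or 5%, and 0 lower). It was 0.22 over 22 of the class I pathway (3 higher, or 13.6%, and 2 lower, or 9.09%). Over 63 type I interferon stimulated genes it was 0.15 (6 higher, or 9.52%, and 0 lower). That last median was -0.077 without Clec9agfp/gfp FL 3, 0.34 without Clec9agfp/gfp FL 2 and 0.031 without the 3 libraries at the ends of the first component. The class II median was 0.19 without WT control 3 and 0.13 after centring on length, and the class I median was 0.11 without WT control 2 and 0.52 without WT control 1. Isg20, an interferon-induced exonuclease, had the smallest p of the last list, with an interaction of 1.40 ± 0.45. Of 26 immediate-early genes 2 were higher and 2 lower (7.69% each), and their median of 0.21 was -0.037 without Clec9agfp/gfp FL 3. Egr1 and Jun, transcription factors induced within minutes of a stimulus, had interactions of -1.73 ± 0.59 and -1.53 ± 0.68. FL lowered both in Clec9agfp/gfp, with adjusted p values of 0.0168 and 0.0225.

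**Figure D5:**
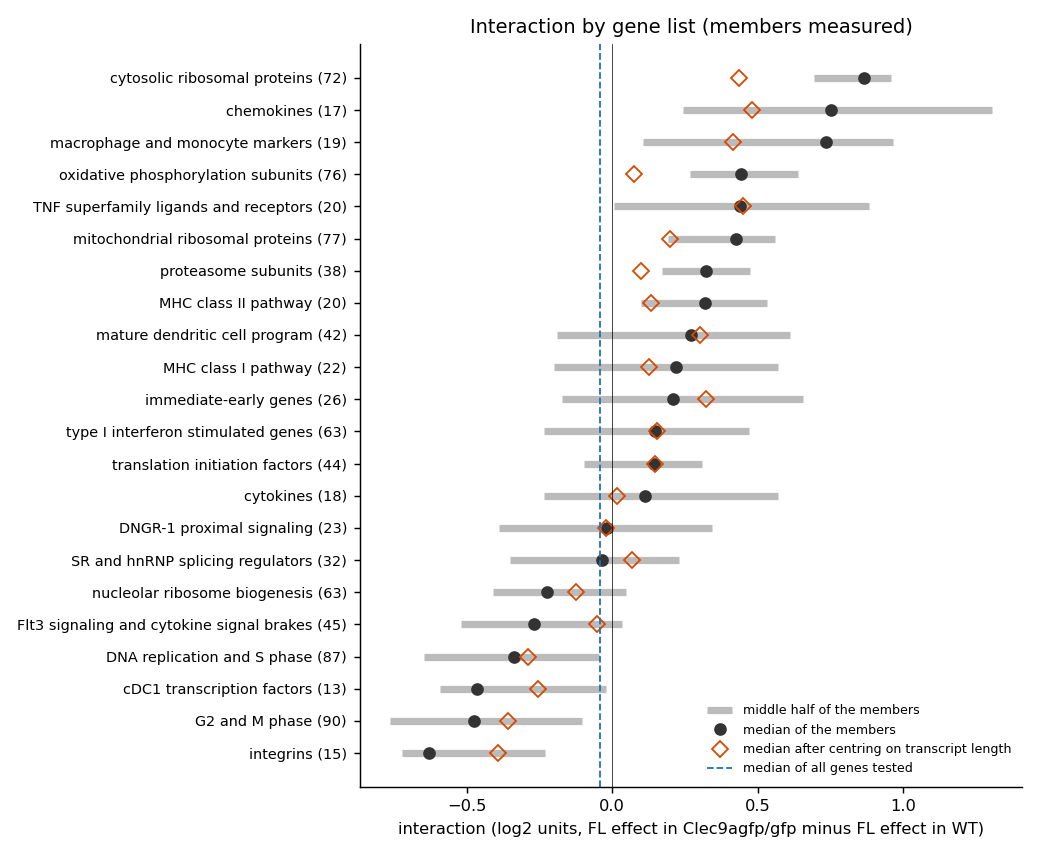
The median interaction (log2 units) of 22 gene lists, with the number of members measured in parentheses, a bar between the quartiles of the members and an open diamond for the median after centring on transcript length. Cytosolic ribosomal protein genes stand highest at 0.87 and integrins lowest at -0.63, and the median of all genes tested, at -0.04, is dashed.

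Of the 8 genes with the smallest p and a positive interaction, Tnfrsf9, Rps3 and Eif3h are given above. Rn7s1 and Rn7s2, copies of the 7SL RNA of the signal recognition particle, had the same value in every library and cannot be told apart (2.14 ± 0.55). Mir6240, annotated as a microRNA locus of 117 bases, had an interaction of 2.02 ± 0.44 (adjusted p = 0.316, and 0.0852 without WT control 2). The other higher genes called without WT control 2 were ENSMUSG00000106106, Lars2 and Gm15564. The origin of the reads at Mir6240 was not tested. Khk, ketohexokinase of fructose metabolism, had 1.33 ± 0.34 and Ly96, the MD-2 partner of Tlr4, 1.44 ± 0.41. Both had their highest group mean in WT control, with 30.7 to 42.7 for Khk and 10.7 to 23.5 for Ly96, against 15.2 to 24.4 and 7.01 to 7.64 in Clec9agfp/gfp control.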

How the data were processed

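RNA of sorted cDC1s was sequenced in 12 libraries of 61-base reads, 3 pools for each of 4 groups taken from the sample titles. The deposited values are a signal, normalized counts per M (CPM), that the authors made by RSEM and TMM scaling. The submitters' processing notes name CASAVA 1.8.2, cutadapt 1.3, RSEM 1.2.3 and the build GRCm38. Within 0.02 counts, every value was a whole count plus 0.5 over the scaled size of its library (3.06 to 25.9 M), so values of the shallowest library are the least precise. The p-values measure the spread between pools.

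Values were taken to log2(value + 1), on which changes of low genes are understated, and limma 3.58.1 (R 4.3.3) fitted the 4 group means jointly, with the prior variance following the mean level. Contrasts were adjusted by the Benjamini-Hochberg method over 11255 genes and called under 0.1, as in the methods of the study. Tests are two-sided, ± is the standard error from the fit, and intervals are 95%. For the library means of a list, ± is the standard error from their pooled spread within groups. Scripts were checked on simulated data. Gene coordinates and transcript lengths came from GENCODE M21, which held 11258 of the identifiers. Promoters came from RefSeq, 1 window per gene.

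Named genes were 9 that the study names for these cells, the 8 with the smallest interaction p in each direction with a mean of at least 5 and a symbol, predicted genes and numbered pseudogenes left out, the leading 3 by p of each list, as far as the list is described, and genes called with opposite signs by FL in the genotypes. Cdk1 was added for its promoter. The members and the 48 hand-written lists were chosen with earlier results of these data known. Alternatives covered scaling, filters, the pseudocount, limma-voom, weights, the replicate block and each left-out library. Length-centring, the 3-library omission and limma-voom with left-out libraries were added after the data were seen.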

Additional observations from a re-analysis of the deposited data

How the results depend on the processing

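The median interaction of the cell-cycle and ribosomal protein lists kept its sign under all 37 alternatives, while sizes and counts moved with single libraries. The number of genes called was 0 under every alternative but 3: it ranged from 0 to 22 with each library left out (22 without WT control 2, and 1, ENSMUSG00000106106, there in limma-voom) and was 1, Rps13-ps2, without WT control 1, WT control 3 and Clec9agfp/gfp FL 3. In the last fit the WT control group held 1 library, which was assumed to vary like the others. Genes higher at an unadjusted p under 0.05 numbered 562 with upper-quartile scaling, 164 with column totals, 598 with sample quality weights, 68 without the 3 libraries, and 173 to 746 with each library left out in limma or limma-voom. Genes lower numbered 468 to 1265 with each library left out. The same leave-outs moved the median interaction between -0.64 and -0.16 for G2 and M genes, -0.47 and -0.10 for S phase genes and 0.53 and 1.45 for chemokines. Without the 3 libraries the medians were -0.020, -0.059 and 0.29, and that of cytosolic ribosomal protein genes 0.45, against 0.43 after length-centring. Limma-voom gave 1.24 for chemokines. The cause of these shifts was not tested. Of the named genes, 3 changed sign in any alternative. Cd80 was at 0.012 with a pseudocount of 5, 0.064 with upper quartiles and 0.14 after length-centring, and between -0.36 and 0.24 with a library left out. Cdk1 was at 0.065 with upper quartiles, 0.061 after thinning, 0.074 with weights, 0.29 after length-centring and 0.17 without the 3 libraries, and between -0.26 and 0.28 with a library left out. Il12b lay between -0.065 and 1.09 with a library left out. With the replicate number as a replicate block, 0 genes were called (smallest adjusted p 0.143), with 368 higher and 683 lower at an unadjusted p under 0.05. The labels do not say that a number marks a shared experiment, and the deviations of 18 same-numbered pairs had correlations of -0.22 to 0.34. The planned edgeR fit was not run, because the deposited values are normalized. The shallowest library limits what can be seen of genes at a few CPM.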

Other observations

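Values for 4 further gene groups follow, in which no gene was called. Of 31 GTPases and regulators induced by interferon gamma, which act in cell-autonomous defense, 27 had a negative estimate, with a median of -0.31. Only 1 of them was lower at an unadjusted p under 0.05 (3.23%, against 6.04% of all genes), and 0 were higher. With each library left out that median lay between -0.57 and -0.053, and it was -0.20 after centring on transcript length. Genes of ER chaperones and the unfolded protein response, which handle secreted proteins, had a median of -0.33 over 28 genes. Of these, 2 were higher (7.14%) and 5 lower (17.9%) at an unadjusted p under 0.05, against 3.08% and 6.04% of all genes. Their median was -0.080 without WT control 1, WT control 3 and Clec9agfp/gfp FL 3. Genes of glycolysis had a median of 0.011 over 30 genes, with 1 higher (3.33%) and 4 lower (13.3%), and of -0.12 without Clec9agfp/gfp FL 3. For 13 chemokine receptor genes the median was 0.33, with 0 higher and 1 lower (7.69%, near the 6.04% of all genes). That median stayed positive with each library left out, between 0.13 and 0.69.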
